A study of Rattus norvegicus with 6 samples.

Results

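Expression of 10 genes of iron uptake, iron storage, iron export and heme breakdown was examined in rat donor hearts, namely Tf, Tfrc, Slc11a2, Steap3, Slc39a14, Slc11a1, Ftl1, Hmox1, Hamp and Cp. They were chosen by gene symbol and are 10 of the 22250 genes in the table of counts. The comparison was between 3 young donor hearts, from rats of 10 weeks (animals 3, 13 and 15), and 3 aged donor hearts, from rats of 1 year (animals 3, 4 and 7). All donors were male Sprague-Dawley rats, the genotype is given as WT in both groups, and the sample names begin with WT for the young and OT for the aged donor hearts. Every heart was arrested with University of Wisconsin solution, stored cold in it, placed heterotopically in a young recipient rat, and its left ventricular myocardium was collected on postoperative day 1. In this model the graft beats without a normal load, unoperated hearts were not analysed here, and the tissue is bulk myocardium, in which fewer cells of a type and less RNA per cell cannot be told apart.

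Cells take up most of their iron as transferrin, which binds ferric iron in plasma, is caught by transferrin receptor 1 and is carried into endosomes, where STEAP3 reduces the iron and DMT1 passes it to the cytosol. Iron that is not used is stored inside ferritin, and iron is released again through ferroportin, which the peptide hormone hepcidin removes from the cell surface. Heme oxygenase 1 opens the heme ring and releases iron, carbon monoxide and biliverdin, and its gene responds to heme, oxidants and inflammation. When cytosolic iron is scarce, iron regulatory proteins stabilise the transferrin receptor transcript and block the translation of ferritin, so ferritin protein can change with no change of its mRNA.

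Promoter sequences from RefSeq (build GRCr8) were found for 6 of the 10 genes (Hamp, Cp, Slc11a2, Tf, Tfrc and Steap3), and the 250 bases before the transcription start were searched on both strands for 6 motifs. Below are the promoter of Hamp, the hormone gene that varied most between hearts, and that of Tfrc. Tfrc was the only one of the 10 genes called lower in aged donor hearts, although the groups overlapped. Both lie on the minus strand, at chr1:95300272-95300521 and chr11:81690319-81690568, and are printed 5′ to 3′ on that strand with the motif matches in capitals.
Hamp: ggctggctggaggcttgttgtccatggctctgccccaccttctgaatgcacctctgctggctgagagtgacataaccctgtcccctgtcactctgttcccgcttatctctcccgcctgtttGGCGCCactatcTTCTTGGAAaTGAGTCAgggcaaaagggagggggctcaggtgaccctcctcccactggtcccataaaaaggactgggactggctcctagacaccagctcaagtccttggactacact
Tfrc: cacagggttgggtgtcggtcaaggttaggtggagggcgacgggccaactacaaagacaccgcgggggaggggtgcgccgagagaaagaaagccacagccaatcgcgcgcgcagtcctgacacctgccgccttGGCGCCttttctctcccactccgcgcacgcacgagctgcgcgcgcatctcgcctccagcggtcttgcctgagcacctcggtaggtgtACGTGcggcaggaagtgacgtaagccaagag
The Hamp promoter held GGCGCC, the bone morphogenetic protein (BMP) response element, starting 129 bases before the start, TTCNNNGAA, the STAT motif, at 117 bases (as TTCTTGGAA), and TGANTCA, the AP-1 motif, at 107 bases (as TGAGTCA). BMP and STAT3 signals are the textbook inducers of hepcidin in the liver. The Tfrc promoter held GGCGCC at 118 bases and ACGTG, the core of the hypoxia response element, at 31 bases before the start. The matches did not overlap one another. Of 33469 rat promoter windows of the same length, 8.69% held GGCGCC, 7.67% TTCNNNGAA, 6.34% TGANTCA and 16.6% ACGTG. One of the Slc11a2 promoters held 4 copies of GGGCGG, the SP1 motif, and the Steap3 promoter 2, against 30.5% of all windows with at least 1. TGACNNNGC, the core of the antioxidant response element, is in 10.1% of windows and was in none of these 6 genes' windows, and the Cp and Tf windows held no match to any of the 6 motifs. These matches describe letters only and are no evidence of binding.

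Reads were counted on genes as 21457509 to 22277905 per young donor heart and 22508040 to 24560869 per aged donor heart. Levels are given as CPM, read counts relative to library size, with the sizes scaled by edgeR's TMM method, and 3 reads correspond to 0.0985 to 0.191 CPM. Aged and young donor hearts were compared with edgeR's quasi-likelihood test over 13784 genes, and differences are log2 fold changes, aged over young. A gene was called higher or lower when its fold change was above 1.5 or below 0.67 with an unadjusted p under 0.05, the limits the study used. Of all genes tested, 13.2% were called higher and 19.0% lower. These are the backgrounds for the counts of iron genes in the fit with all 6 hearts and TMM scaling. For counts without young animal 15 the background is 3802 genes called higher and 3412 lower of 14109 tested. After Benjamini-Hochberg adjustment 0% of the genes (0 of 13784) had an adjusted p under 0.05 in edgeR, against 4731 with an unadjusted p under 0.05, 3592 with an adjusted p under 0.05 in DESeq2 and 8417 in limma-voom. The smallest p that a two-sided exact permutation test allows in this design is 0.1.

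One library stood apart, and whether its label or its tissue differs is not known from the files, which bears on every young mean and fold change given with all 6 hearts. On the scale of log2 CPM, young animal 15 lay closer to the aged mean than to that of the other young donor hearts for 10 of the 10 genes. That held for 69.7% of all genes tested. It lay inside the range of the aged donor hearts for 3 of the 10 genes (41.4% of all genes). These distances hold for log2 CPM and not for CPM, in which Hmox1 of young animal 15, at 258 CPM, was nearer the other young donor hearts (mean 18.1 CPM) than the aged (mean 1015 CPM). Genes of the mitochondrial genome took 21.7%, 21.7% and 11.9% of reads in young animals 3, 13 and 15, and 6.56% to 10.3% in aged donor hearts. Cardiomyocyte markers were present in every heart, but their summed level was 103710 and 114001 CPM in young animals 3 and 13, 14750 CPM in young animal 15 and 632 to 9587 CPM in aged donor hearts, with the lowest value in aged animal 3. Macrophage markers summed to 411, 380 and 2486 CPM in young animals 3, 13 and 15 and to 3883 to 7498 CPM in aged donor hearts. Neutrophil markers summed to 5.74, 7.56 and 136 CPM and to 316 to 1334 CPM. The part of these cell types in the results was not tested, and each result is given with all 6 hearts and, where it matters, without young animal 15.

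**Figure D1:**
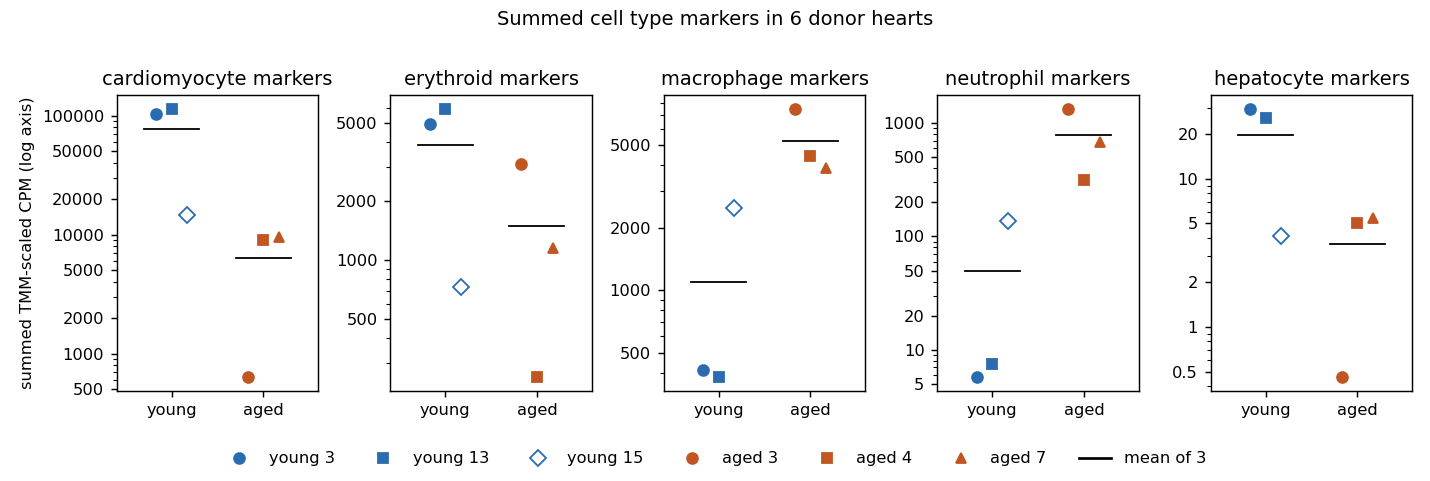
Summed TMM-scaled CPM (log axis) of marker genes of 5 cell types in each heart, with young donor hearts on the left, aged donor hearts on the right and a line at the mean of 3. Cardiomyocyte markers were highest in young animals 3 and 13, macrophage and neutrophil markers were highest in the aged donor hearts, and young animal 15 (open diamond) lay apart from the other young donor hearts in each panel.

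Of the 10 genes, 4 were called higher in aged donor hearts (Hmox1, Tf, Ftl1 and Slc39a14) and 1 was called lower (Tfrc), while Slc11a1, Slc11a2, Steap3, Hamp and Cp did not pass. The median log2 fold change of the 10 genes was 1.03, against 0.016 over all genes tested. In 5 genes (Hmox1, Tf, Ftl1, Slc39a14 and Slc11a1) the groups did not overlap and the aged donor hearts were the higher ones, a pattern of 21.0% of all genes tested. In 0 of the 10 genes did the aged donor hearts lie wholly below the young, against 20.7% of all genes. With young animal 15 left out, the same fit called 6 genes higher and 1 lower, with Slc11a1 and Steap3 as the additional ones. Calls rose over all genes too, to 3802 higher and 3412 lower of 14109 tested, from 1815 and 2621 of 13784 with all 6 hearts. Leaving out another heart gave 1 to 4 calls, and Tf alone was called in every one of these fits.

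**Figure D2:**
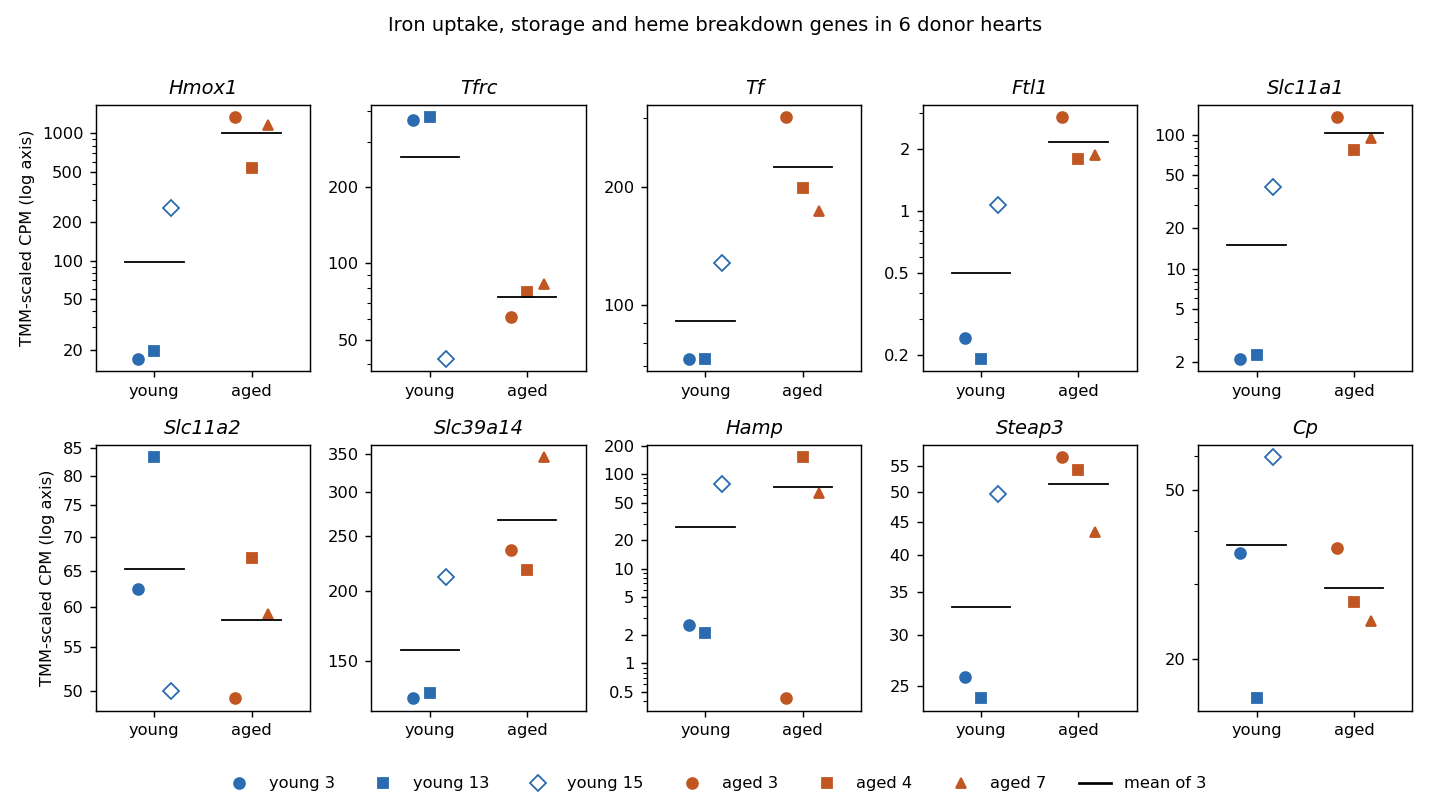
TMM-scaled CPM (log axis, a separate scale for each gene) of the 10 genes in each heart, with a line at the mean of 3. Hmox1, Tf, Ftl1, Slc11a1 and Slc39a14 show no overlap, with the aged donor hearts higher, and in Tfrc young animal 15 (open diamond) lies below all aged donor hearts.

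Transferrin and its receptor were called in opposite directions, but for the receptor the groups overlapped. Tf (ENSRNOG00000030625, Rnor_6.0 chromosome 8, 111673547 to 111721333, minus strand), the plasma iron carrier made mainly by the liver, stood at 72.8, 72.9 and 128 CPM in young animals 3, 13 and 15 and at 301, 199 and 174 CPM in aged animals 3, 4 and 7. The groups did not overlap, with young animal 15 the highest of the young and aged animal 3 the highest of all. The log2 fold change was 1.299 ± 0.34 (SE), with p = 0.00777 and adjusted p = 0.0916 in edgeR and p = 0.1 in the two-sided exact permutation test, and its edgeR p was the smallest among the 10 genes. It passed the unadjusted limits in all 13 alternative scalings, filters, tests and fits with a heart left out, with log2 fold changes of 1.04 to 1.69. It did not pass with an adjusted p under 0.05 in edgeR. Hepatocyte markers summed to 29.6, 25.6 and 4.09 CPM in young and 0.46 to 5.48 CPM in aged donor hearts. Of 8 hepatocyte markers found, only 2 had enough reads to be tested. Like the cardiomyocyte marker sum, their sum was high in young animals 3 and 13 and lowest in aged animal 3. No level of liver RNA is read from it. Albumin (Alb) and fibrinogen alpha chain (Fga) were listed at 0 in every heart, and no level is read from that 0. Glial markers, of 1 other cell type known to make transferrin, summed to 25.5 to 31.7 CPM in young and 25.3 to 32.5 CPM in aged donor hearts. Macrophage markers summed to 411, 380 and 2486 CPM in young and 7498, 4447 and 3883 CPM in aged animals 3, 4 and 7. That is the order of Tf among the aged donor hearts. The part of these cell types in the Tf result was not tested.

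Tfrc (ENSRNOG00000001766, chromosome 11, 71397383 to 71419223, minus strand), which encodes transferrin receptor 1, stood at 367 and 376 CPM in young animals 3 and 13 but at 41.9 CPM in young animal 15, and at 61.5, 76.8 and 82.5 CPM in aged animals 3, 4 and 7. Young animal 15 was thus below all 3 aged donor hearts, and the other young donor hearts were far above them. The log2 fold change was -1.83 ± 0.75 (SE), with p = 0.0480 and adjusted p = 0.143 in edgeR, and the two-sided exact permutation test gave p = 0.4. It was -2.30 without young animal 15. The call was lost when any heart other than young animal 15 was left out, and when libraries were scaled by their totals (log2 fold change -1.22) or by totals without the mitochondrial genome (-1.44). Erythroid precursors and cardiomyocytes both carry this receptor. Erythroid markers summed to 4928, 5912 and 733 CPM in young animals 3, 13 and 15 and to 3098, 253 and 1150 CPM in aged animals 3, 4 and 7, with 1 of 8 tested markers called lower. Most of this sum was globin, with Hba-a1, Hba-a2 and Hbb at 2662, 1207 and 910 CPM in young animal 3. No level of erythroid precursors is read from it. Cardiomyocyte markers had 5 of 12 called lower. The part of these cell types in the Tfrc result was not tested.

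The endosomal steps after the receptor differed less. Slc11a2 (ENSRNOG00000019550, chromosome 7, 142025815 to 142063212, minus strand), which encodes the ferrous iron transporter DMT1, stood at 62.4, 83.4 and 50.0 CPM in young and 49.2, 66.8 and 59.1 CPM in aged donor hearts. The groups overlapped, and the log2 fold change of -0.16 had a 95% interval from -0.74 to 0.42 in edgeR, with a sign that turned when libraries were scaled by their totals (0.33). Steap3 (ENSRNOG00000049471, chromosome 13, 36257112 to 36290531, minus strand), the endosomal ferrireductase, stood at 25.8, 23.9 and 49.6 CPM in young and 56.8, 54.2 and 43.4 CPM in aged donor hearts. Young animal 15 was above the lowest aged donor heart, and the log2 fold change of 0.63 ± 0.32 (SE) had p = 0.0910 in edgeR and p = 0.2 in the exact permutation test. When young animal 15 was left out it was 1.09 and past the limits.

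Slc39a14 (ENSRNOG00000009832, chromosome 15, 51982982 to 52029816, minus strand) encodes ZIP14, which takes up iron not bound to transferrin and is known to be induced in inflammation. It stood at 129, 132 and 211 CPM in young and 237, 218 and 346 CPM in aged donor hearts. The groups did not overlap, although young animal 15 was within a few CPM of aged animal 4. The log2 fold change was 0.76 ± 0.31 (SE), with p = 0.0452 and adjusted p = 0.139 in edgeR and p = 0.1 in the exact permutation test. The call was lost without young animal 3 or 13 or aged animal 3 or 7 (log2 fold changes of 0.54 to 0.85).

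Slc11a1 (ENSRNOG00000014956, chromosome 9, 81655629 to 81666706, plus strand) encodes NRAMP1, which moves divalent metals out of the phagosomes of macrophages and neutrophils. It was nearly absent from young animals 3 and 13, at 2.12 and 2.29 CPM, reached 40.5 CPM in young animal 15 and stood at 135, 77.1 and 94.98 CPM in aged animals 3, 4 and 7. The groups did not overlap, but the log2 fold change of 2.76 ± 1.18 (SE) had p = 0.0558 in edgeR, with p = 0.1 in the exact permutation test, and was not called. It rose to 5.58, past the limits, when young animal 15 was left out. The macrophage list had 5 of 11 tested markers called higher and the neutrophil list 8 of 10, and their summed levels ranked young animal 15 above the other young donor hearts, as Slc11a1 did. Their part in the Slc11a1 result was not tested.

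Ferritin light chain was higher in aged donor hearts. Ftl1 as listed (ENSRNOG00000031506, chromosome 5, 152325871 to 152326778, plus strand) had a span of 908 bases, equal to its exon length and therefore without introns, and it took only 4, 3 and 26 reads in young and 87, 47 and 49 reads in aged donor hearts. These are 0.24, 0.19 and 1.07 CPM against 2.86, 1.78 and 1.88 CPM, with no overlap and a log2 fold change of 2.04 ± 0.69 (SE, p = 0.0238 and adjusted p = 0.108 in edgeR, exact permutation p = 0.1). Most ferritin light chain reads were counted on another gene, LOC100360087 (chromosome 1, 101448346 to 101449829, minus strand), at 77.9, 71.1 and 305 CPM in young and 695, 406 and 603 CPM in aged donor hearts. The span of LOC100360087, 1484 bases, exceeds its exon length of 552 bases, so unlike Ftl1 as listed it has introns. Near-identical copies share reads, so the split between these genes is uncertain. With the reads of both added, the log2 fold change was 1.91 ± 0.641 (SE, adjusted p = 0.106 in edgeR), past the same limits. Counted as listed, Ftl1 lost its call without young animal 3, young animal 13 or aged animal 3. The ferritin heavy chain Fth1 and the mitochondrial ferritin Ftmt were listed at 0 in every heart. Since nearly every cell makes ferritin heavy chain, no level is read from that 0.

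Hmox1 (ENSRNOG00000014117, chromosome 19, 14508616 to 14515456, plus strand), which encodes the inducible heme oxygenase 1, showed the largest log2 fold change of the 10 genes. It stood at 16.9, 19.4 and 258 CPM in young animals 3, 13 and 15 and at 1340, 534 and 1173 CPM in aged animals 3, 4 and 7. The groups did not overlap, yet young animal 15 was far above the other young donor hearts. Mean levels were 97.96 ± 138 CPM in young and 1015 ± 426 CPM in aged donor hearts (SD, n = 3 each), 10.4-fold higher in aged donor hearts, with a log2 fold change of 3.37 ± 1.20 (SE, p = 0.0284 and adjusted p = 0.115 in edgeR, exact permutation p = 0.1). In the fit without young animal 15 the fold change of the means was 56.0 and the log2 fold change 5.85. Left out singly, young animals 3 and 13 and aged animals 3 and 7 each ended the call, with edgeR p-values of 0.0521 to 0.0615. Macrophages induce this gene. Macrophage and neutrophil marker sums were, like Hmox1, higher in young animal 15 and the aged donor hearts than in young animals 3 and 13. Among aged animals 3, 4 and 7 the neutrophil sum, at 1334, 316 and 684 CPM, had the order of Hmox1. The macrophage sum, at 7498, 4447 and 3883 CPM, did not. The part of these cells in the Hmox1 result was not tested.

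The constitutive Hmox2 behaved otherwise, at 72.5, 74.8 and 57.9 CPM in young and 45.4, 61.6 and 51.0 CPM in aged donor hearts (log2 fold change -0.38, adjusted p = 0.206 in edgeR, and 0.092 when scaled by library totals). Per length, Hmox2 had a mean of 29.8 FPKM, the deposited level divided by gene length and library total, in young and 31.7 FPKM in aged donor hearts, and Hmox1 65.4 and 772 FPKM. The mean of Hmox1 in young donor hearts came from young animal 15, with 8.30, 9.07 and 179 FPKM in animals 3, 13 and 15. Whether the 2 paralogues differed in their change was not tested.

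Hepcidin varied most among hearts of a group. Hamp (ENSRNOG00000021029, chromosome 1, 89368021 to 89369960, minus strand) had 42, 33 and 1891 reads in young animals 3, 13 and 15 and 13, 4019 and 1660 reads in aged animals 3, 4 and 7, which are 2.54, 2.10 and 78.1 CPM and 0.43, 152 and 63.6 CPM. Aged animal 3 was the lowest of all 6 hearts and aged animal 4 the highest, so the aged donor hearts spanned all young ones. The log2 fold change was 1.38 ± 1.91 (SE) with a 95% interval from -3.23 to 5.99 and p = 0.495 in edgeR (exact permutation p = 0.9), and it ran from 0.21 to 4.99 over the alternative settings. The low value in aged animal 3 stood beside the lowest cardiomyocyte marker sum of the 6 hearts, 632 CPM. In young animals 3 and 13 Hamp was also low, and their cardiomyocyte marker sums were the highest. Liver is the main source of the hormone. Hepatocyte markers, only 2 of them tested, summed to 29.6, 25.6 and 4.09 CPM in young animals 3, 13 and 15. Their sum was 0.46 to 5.48 CPM in aged donor hearts. The part of either cell type in the Hamp values was not tested.

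Cp (ENSRNOG00000011913, chromosome 2, 104744461 to 104799853, plus strand) encodes ceruloplasmin, the copper ferroxidase that loads exported iron onto transferrin. It stood at 35.5, 16.1 and 59.9 CPM in young and 36.6, 27.2 and 24.5 CPM in aged donor hearts. All aged donor hearts lay inside the range of the young ones. The log2 fold change of -0.34 had a 95% interval from -1.45 to 0.78 in edgeR and was 0.23 without young animal 15.

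**Figure D3:**
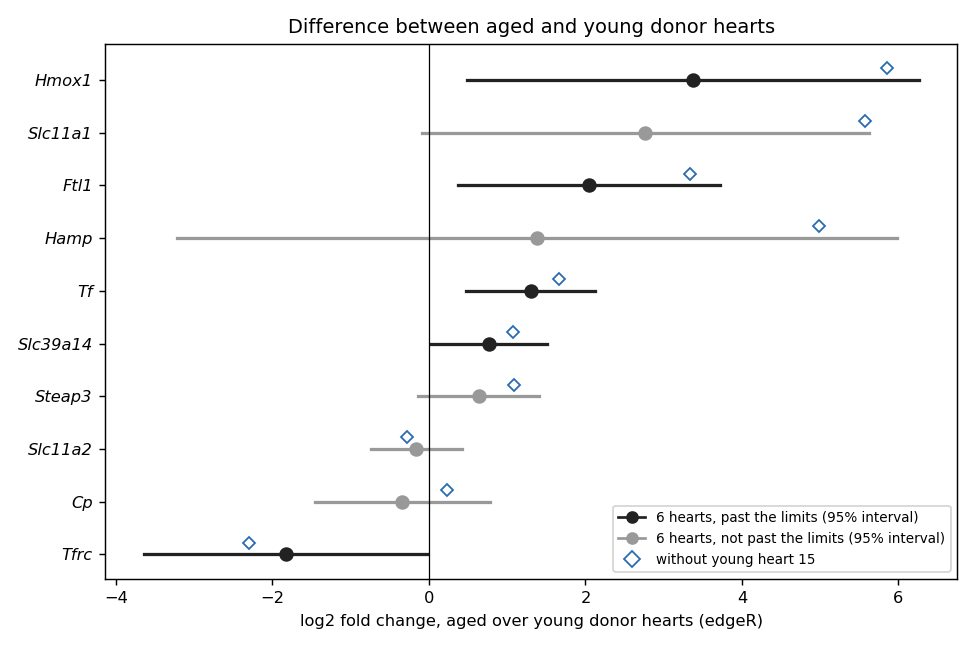
Log2 fold change of each of the 10 genes, aged over young donor hearts, from edgeR (points, with 95% intervals as lines, black where past the limits) and without young animal 15 (open diamonds, shown without intervals). Hmox1 has the largest value at 3.37, the interval of Hamp runs from -3.23 to 5.99, and in every gene but Cp, which changes sign, the diamond lies farther from 0 than the point.

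Levels were compared between genes per length, as FPKM. In young donor hearts the mean order ran from Hamp at 81.8 FPKM through Hmox1 at 65.4, Tfrc at 42.1, Slc39a14 at 30.0, Tf at 25.4, Slc11a2 at 10.4, Steap3 at 10.2, Cp at 9.17 and Slc11a1 at 5.35 to Ftl1 at 0.548 FPKM. Neighbours in this order overlapped between hearts, except Tf and Slc11a2. In aged donor hearts Hmox1 led with 772 FPKM, followed by Hamp at 228, Tf at 81.6, Slc39a14 at 66.5 and Slc11a1 at 41.2 FPKM. Below them came Steap3 at 20.2, Tfrc at 18.0, Slc11a2 at 12.996, Cp at 9.19 and Ftl1 at 2.84 FPKM. The neighbours that did not overlap there were Slc11a1 and Steap3, Tfrc and Slc11a2, and Cp and Ftl1. The 2 leading places in the young donor hearts came from young animal 15, with Hamp at 5.44, 4.27 and 236 FPKM in animals 3, 13 and 15, and Hmox1 as given above. Tfrc was above Tf in young animals 3 and 13 and below it in young animal 15 (9.52 against 42.6 FPKM) and in all aged donor hearts. LOC100360087 had 268 FPKM in young and 1221 FPKM in aged donor hearts, a mean above that of every one of the 10 genes in both groups.

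The patterns most like those of 3 of the genes over the 6 hearts were found among 12956 genes, by the root mean square difference of centred log2 CPM. For Hmox1 they were those of Clec4d, Ptger2 and Clec7a, at 0.29, 0.30 and 0.31 log2 units. Clec7a, for example, stood at 1.33, 1.91 and 18.5 CPM in young and 96.3, 52.0 and 62.7 CPM in aged donor hearts. For Tf they were Adap2, Slc12a9 and Fosl2, at 0.067, 0.075 and 0.093 log2 units, with Adap2 at 7.92, 7.56 and 13.6 CPM in young and 30.3, 20.0 and 16.5 CPM in aged donor hearts. For Tfrc they were Ogdhl, Ptprr and RGD1311744, at 0.22, 0.22 and 0.25 log2 units. Ogdhl repeated the low value of young animal 15, at 8.41, 8.52 and 1.07 CPM in young and 1.31, 2.58 and 2.03 CPM in aged donor hearts.

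The wider iron and heme pathway was described with 8 lists by role. They hold 94 genes, of which 92 are in the table and 86 were tested, and 23 were called higher and 13 lower in aged donor hearts, with a median log2 fold change of 0.10. Without the 10 genes described above, 19 of 76 were called higher and 12 lower, with a median of 0.05. The balance between the directions depended on scaling, with 29 higher and 6 lower by library totals and 28 and 10 by totals without the mitochondrial genome. Among all 13784 genes tested, 3147 were called higher and 1440 lower by library totals, and 2561 and 1806 by totals without the mitochondrial genome. The median of all genes moved to 0.46 and 0.30 under these scalings, and the share of higher genes among all calls from 40.9% to 68.6% and 58.6%. Of the genes named below, Neo1, Flvcr2, Urod and Cisd1 lost their call under library totals, and none changed direction other than as stated.

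**Figure D4:**
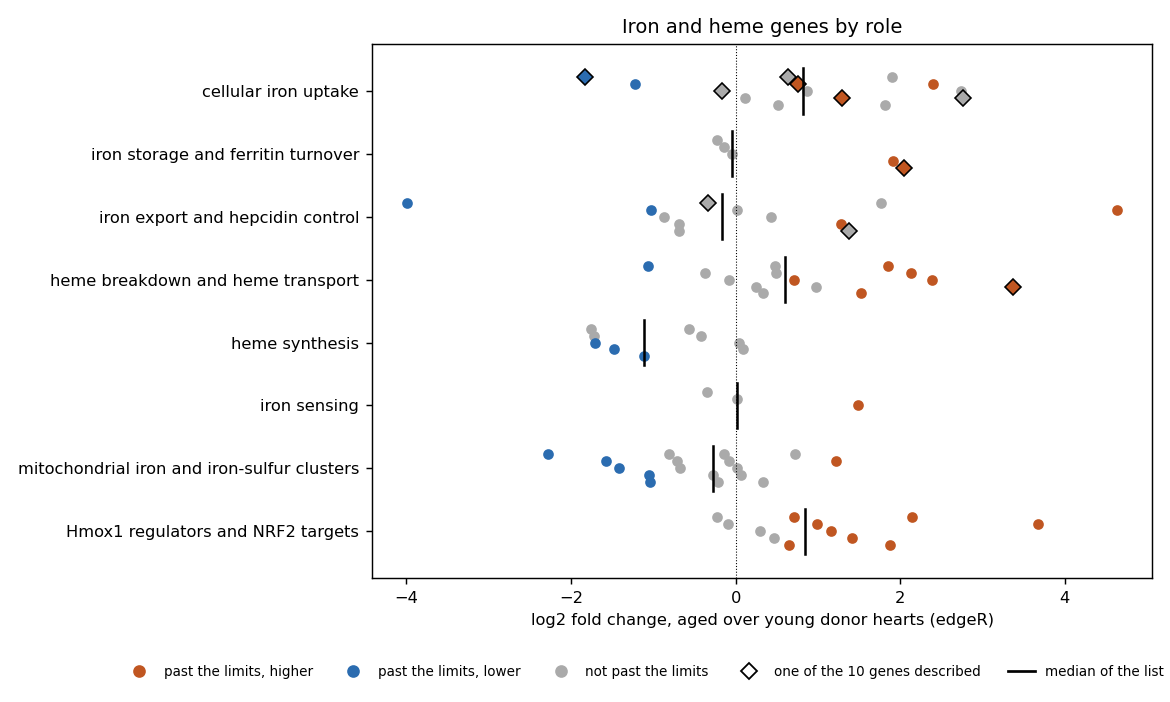
Log2 fold change, aged over young donor hearts, of each tested gene in 8 lists of iron and heme genes (points, with the 10 genes described above as diamonds and a line at the median of each list). Heme synthesis has 0 genes called higher, and the Hmox1 regulators and NRF2 targets have 0 called lower.

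Among 14 tested genes of cellular iron uptake, 3 were called higher and 2 lower, with a median of 0.82. Besides Tf and Slc39a14, Lcn2, the siderophore-binding protein of neutrophil granules and injured epithelium, was called higher, at 11.4, 9.72 and 9.37 CPM in young and 30.1, 41.3 and 88.7 CPM in aged donor hearts (log2 fold change 2.39, adjusted p = 0.0916 in edgeR). In young animal 15 Lcn2 stayed at the level of the other young donor hearts. Its receptor Slc22a17 was called lower, with 37.2, 38.6 and 30.3 CPM in young and 11.7, 18.0 and 16.0 CPM in aged donor hearts (log2 fold change -1.22, adjusted p = 0.0916 in edgeR). Neither gene's groups overlapped. Of the paralogues, Slc39a8 (ZIP8) had a log2 fold change of 1.82 (adjusted p = 0.165 in edgeR) with no overlap, Steap1, Steap2 and Steap4 had 2.74, 0.87 and 0.51 and were not called, and Tfr2 had at most 0.492 CPM and was not tested. Lactotransferrin (Ltf) was listed at 0 in every heart, and no level is read from that 0. The fit without young animal 15 called 9 genes of this list higher and 2 lower.

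In iron storage, the 2 light chain genes were the only ones called among 5 tested, and the median was -0.04. As near-identical copies share reads, these 2 calls may not be independent. Ncoa4, the receptor that delivers ferritin to autophagy, had 125 to 147 CPM in young and 117 to 148 CPM in aged donor hearts (log2 fold change -0.04), and the iron chaperone Pcbp2 had a log2 fold change of -0.14. Both turned positive under scaling by library totals.

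Of 12 tested genes of iron export and hepcidin control, 2 were called higher and 2 lower, with a median of -0.16. The higher ones, Bmp2 and Il6, encode signals known to induce hepcidin, but Bmp6, another inducer, had 34.2, 24.5 and 11.4 CPM in young and 14.9, 9.96 and 13.6 CPM in aged donor hearts. It was not called (log2 fold change -0.87), and was called lower without young animal 15 (-1.16). Bmp2 had 3.27, 3.75 and 6.15 CPM in young and 8.31, 8.15 and 15.6 CPM in aged donor hearts (log2 fold change 1.28, adjusted p = 0.0976 in edgeR). Il6 had no read in young animals 3 and 13, 0.413 CPM in young animal 15 and 3.09, 0.985 and 8.16 CPM in aged donor hearts (adjusted p = 0.0927 in edgeR). The lower ones, Hjv (hemojuvelin, a BMP co-receptor of muscle and liver) and Neo1 (neogenin, its binding partner), had log2 fold changes of -3.99 and -1.03. Hjv stood at 193, 228 and 39.0 CPM in young and 0.328, 16.9 and 11.7 CPM in aged donor hearts, and like the cardiomyocyte marker sum it was lowest in aged animal 3. The ferroportin gene Slc40a1 was listed at 0 in every heart, and as for Fth1 no level is read from that 0. The ferroxidase Heph, a paralogue of Cp, had a log2 fold change of -0.69 (adjusted p = 0.202 in edgeR).

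Of 14 genes of heme breakdown and transport, 6 were called higher and 1 lower, with a median of 0.60. Cd163, the macrophage receptor for haptoglobin-hemoglobin complexes, stood at 44.0, 42.4 and 54.5 CPM in young and 451, 164 and 122 CPM in aged donor hearts, so young animal 15 lay near the other young donor hearts (log2 fold change 2.39, adjusted p = 0.0916 in edgeR). Abcg2, a porphyrin and drug exporter, and Hp, haptoglobin, had log2 fold changes of 2.13 and 1.85, on levels of at most 8.83 and 21.4 CPM. The hemopexin receptor Lrp1 and the reductase Por, the electron donor of heme oxygenase, completed the higher genes, with log2 fold changes of 1.52 and 0.70. Flvcr2 was called lower, at -1.07. The biliverdin reductases Blvra and Blvrb, which act after heme oxygenase, had log2 fold changes of 0.34 and -0.08 and were not called, and that of Blvrb was 0.40 under scaling by library totals.

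Of 9 genes of heme synthesis, 0 were called higher and 3 lower, and 6 were not called, with a median of -1.12. Among the latter, Cpox and Ppox had log2 fold changes of 0.10 and 0.04. Fech, ferrochelatase, which inserts iron into the porphyrin ring, stood at 126, 141 and 46.1 CPM in young and 23.9, 41.5 and 47.2 CPM in aged donor hearts (log2 fold change -1.48), with young animal 15 inside the range of the aged. Uros and Urod, earlier enzymes of the porphyrin path, had log2 fold changes of -1.71 and -1.12. The rate-limiting Alas1 had a log2 fold change of -1.76 and was not called (adjusted p = 0.197 in edgeR). In the fit without young animal 15, 5 genes of the list were called lower. Cardiomyocyte markers had lower sums in the same hearts, young animal 15 included, and their part in this list was not tested.

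Of 17 genes of mitochondrial iron and iron-sulfur clusters, 1 was called higher and 5 lower, with a median of -0.27. Slc25a37, mitoferrin 1, the iron importer of mitochondria, stood at 8.16, 8.13 and 13.7 CPM in young and 24.3, 19.4 and 26.5 CPM in aged donor hearts (log2 fold change 1.22, adjusted p = 0.0916 in edgeR). Isca1, an iron-sulfur cluster assembly factor, was called lower, at 568, 621 and 166 CPM in young and 68.1, 104 and 108 CPM in aged donor hearts (log2 fold change -2.27, adjusted p = 0.0916 in edgeR). Cisd1 (mitoNEET) and Glrx5 (glutaredoxin 5) had log2 fold changes of -1.57 and -1.41.

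Of the 3 iron sensors, Fbxl5, the subunit of a ubiquitin ligase that senses iron and marks iron regulatory proteins for degradation, was called higher, at 52.9, 49.1 and 56.9 CPM in young and 200, 91.1 and 154 CPM in aged animals 3, 4 and 7. The log2 fold change of 1.49 ± 0.31 (SE, adjusted p = 0.0916 in edgeR) was 1.58 without young animal 15, which lay with the other young donor hearts here. The iron regulatory protein genes Aco1 and Ireb2 were not called (log2 fold changes of -0.35 and 0.01), and the sign of both changed with the scaling.

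Of 12 tested regulators of Hmox1 and targets of NRF2, the oxidant-responsive transcription factor, 8 were called higher and 0 lower, with a median of 0.85. The list mixes activators, repressors and targets, and Bach1, a repressor of Hmox1, was among those called higher (log2 fold change 0.99). Nfe2l2, which encodes NRF2, Mafk, the NRF2 repressor Keap1 and the target Gclm were not called (0.47, 0.30, -0.22 and -0.09). Keap1 and Gclm turned positive under scaling by library totals. Maff, a small Maf protein that pairs with NRF2 and BACH1, stood at 13.1, 12.0 and 14.9 CPM in young and 60.4, 49.4 and 66.5 CPM in aged donor hearts (log2 fold change 2.14 ± 0.19, SE, adjusted p = 0.0916 in edgeR). Young animal 15 was again near the other young donor hearts. Slc7a11, the cystine carrier, had 0.0605, 0.191 and 1.28 CPM in young and 4.07, 2.99 and 13.8 CPM in aged donor hearts (log2 fold change 3.67). With young animal 15 left out, 7 genes of this list were called higher and 0 lower.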

How the data were processed

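Polyadenylated RNA of left ventricular myocardium from 6 donor hearts was sequenced in paired reads. The authors deposited 1 table with raw read counts per gene and heart and FPKM values, which are the count over gene length and library total (133500 values checked to 0.1%, 1 off). The submitters' processing notes name HISAT2 2.0.5, StringTie 1.3.3b, featureCounts 1.5.0-p3, DESeq2 1.16.1 and GATK 3.7 and the build Rnor_6.0, without roles, and the use of strand is not given in the sources used here, so reads of overlapping and near-identical genes are uncertain. Animal numbers count within a group. No pair of libraries agreed within sampling noise (the most similar, young animals 3 and 13, had a chi-square of 9.81 per degree of freedom), so all 6 were kept. The next most similar pair, aged animals 4 and 7, had 71.6. Fits without young animal 15 thus rest on the 2 young donor hearts that were most alike.

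The test used edgeR 4.0.16 in R 4.3.3 (filterByExpr, TMM, glmQLFit and glmQLFTest, no covariates), alternatives used limma 3.58.1 and DESeq2 1.42.0, and summarised in Python 3.11.15 with scipy 1.17.1. Standard errors are log2 fold changes over the square root of F, log2 CPM used a prior count of 2, and adjustment was over all 13784 genes tested. The fit was tested on simulated data. Alternatives were other scalings, filters on low counts, tests and p limits, adding reads of ferritin light chain copies, and leaving out each heart.

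The 10 genes and all lists were chosen with earlier results of these data known. The text names the 10 genes, up to 3 rises and 3 falls per list past the limits by size, paralogues, genes listed at 0, and for Hmox1, Tf and Tfrc the 3 most alike genes with a mean of at least 1 CPM. One list gene under this rule is not reported here. List members named beyond this rule, namely Alas1, Blvra, Blvrb, Ncoa4, Pcbp2, Aco1, Ireb2, Hp, Lrp1, Por, Bmp6, Cpox, Ppox, Bach1, Nfe2l2, Mafk, Keap1 and Gclm, were chosen after their values were seen. Promoters are RefSeq (GRCr8), were read as text and were not placed on Rnor_6.0. Proteins were not analysed here.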

Additional observations from a re-analysis of the deposited data

How the results depend on the processing

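With 3 hearts a group, the count of the 10 genes past the limits (5) rested on single hearts. It was 1 to 7 when each heart was left out, namely 1 without young animal 3, young animal 13 or aged animal 3, 2 without aged animal 7, 4 without aged animal 4 and 7 without young animal 15. It was 4 to 7 under other scalings, filters and tests, 0 with an adjusted p under 0.05 and 1 with an adjusted p under 0.1. The count of iron and heme list genes past the limits (36) ran from 21 to 47 with a heart left out (21 without young animal 13 or aged animal 7, 22 without young animal 3) and was 33 to 53 otherwise. Over all genes, the count past the limits (4436) lay between 2432 (young animal 3 left out) and 7214 (young animal 15 left out) when each heart was left out, and was 7503 by limma-voom and 2578 with an adjusted p under 0.1. Genes with an adjusted p under 0.05 numbered 0 to 6815 with a heart left out, the latter without young animal 15, 3592 by DESeq2 and 8417 by limma-voom. Directions turned for Slc11a2 (library totals 0.33, totals without the mitochondrial genome 0.15, without young animal 13 0.055, leave-one-out range -0.28 to 0.055) and Cp (library totals 0.0040, limma-voom 0.042, without young animal 15 0.23, leave-one-out range -0.70 to 0.23), and the other 8 genes kept theirs in every alternative. Slc11a1 passed the limits with no filter, in DESeq2, in limma-voom (5.32) and without young animal 15. Adding the reads of 3 other ferritin light chain genes to Ftl1, an alternative chosen after seeing the data, gave 1.91. With at least 10 reads in every heart, Ftl1 was not tested. The cause of these shifts was not tested. No paired analysis was possible because the groups share only the animal number 3, which counts within a group.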
